A study of Mus musculus with 18 samples.

Results

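The IL-1 family was followed through 10 genes, namely the ligands Il1a, Il1b, Il18 and Il33, the receptor chains Il1r1, Il1rap and Il1rl1, the decoy receptor Il1r2, and the antagonists Il1rn and Il18bp. They were chosen by gene symbol, and all 10 were found among the 36172 gene rows of the deposited table. Brain RNA had been collected by translating ribosome affinity purification (TRAP), in which an EGFP-tagged ribosomal protein is pulled down together with the mRNAs on it. The mice carried the Cx3cr1-Cre/Ert2+ and NuTRAP+ alleles, so tamoxifen switched on the tag in cells that express Cx3cr1, which in brain are mainly microglia but also include border macrophages and, in blood, monocytes. All mice received tamoxifen at about 3 months of age, and 3 to 4 weeks later 1 injection into the peritoneum, of 5 mg/kg lipopolysaccharide (LPS, a bacterial endotoxin) or of its vehicle, phosphate-buffered saline (PBS), with RNA taken 24 h after it. Each of 9 animals (4 PBS, 2 female and 2 male; 5 LPS, 4 female and 1 male) gave an input library, made from cleared half-brain homogenate before the pull-down, and a positive library from the tagged ribosomes. The groups held 4 libraries each for Input PBS, for Input LPS and for Positive PBS, and 5 for Positive LPS, because the input library of LPS animal 271 held only 1252 counts and was left out.

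IL-1α and IL-1β bind the receptor chain IL1R1, which then recruits the accessory chain IL1RAP, and the pair signals through MYD88 and IRAK kinases to NF-kB. IL-1 receptor antagonist, the product of Il1rn, occupies IL1R1 without signalling, and IL1R2 binds the ligands but has no signalling domain, so both act as brakes. IL-18 uses its own receptor pair and is held by the soluble IL-18 binding protein, whereas IL-33, a nuclear protein released from damaged cells, signals through ST2 (encoded by Il1rl1) together with IL1RAP. In brain, microglia are the best known source of IL-1, and oligodendrocytes and astrocytes of IL-33.

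The 17 libraries used held between 22968939 and 35123345 counts each. Counts were divided by median-of-ratios size factors (normalised counts), and a gene was tested if every library of at least 1 group had over 20 of them. Of the 10 genes, 5 met this in all 4 groups, namely Il1r1, Il1rap, Il18, Il18bp and Il33. Il1a met it in 3 groups, Il1b, Il1rn and Il1r2 only in both LPS groups, and Il1rl1 only in both positive groups, so these 4 passed only through groups where they were high. A gene was called where edgeR's quasi-likelihood test gave a Benjamini-Hochberg adjusted p under 0.05 over all 14803 genes tested, with a change of over 25%. A panel of 10 microglial markers summed to between 10013 and 14077 normalised counts in input and to between 156940 and 248517 in the positive fraction, and all 10 were called higher in the positive fraction under either treatment. Within the positive fraction the sum was 202200 to 248517 in PBS and 156940 to 218194 in LPS, and LPS lowered 5 of the 10 markers (among them P2ry12, by 2.47 on the log2 scale) and raised 2. Of all genes tested, 14.9% were lowered and 19.0% raised in that comparison. The part of these marker changes in the LPS effects on the 10 genes was not tested. Markers of other cells remained in the positive fraction. A list of 9 neuronal genes summed to 228037 to 269215 in Positive PBS and 225057 to 242011 in Input PBS. A list of 10 astrocyte genes summed to 110233 to 161333 and 111050 to 119389. The part of such RNA in the positive values of the 10 genes was not tested either. These are bulk libraries, so fewer cells of a type and less RNA per cell cannot be told apart.

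The sequences around the transcription starts of 4 genes are shown because Il1a, Il1b and Il1rn rose with LPS in both fractions and Il33 fell in both. They are RefSeq windows (build GRCm38.p6, the mm10 assembly of the table) of 250 bases before and 50 bases after a start site, written 5′ to 3′ on the gene's strand. Il1rn has 3 such windows and Il33 has 2, and those printed lie at the start of the deposited gene model. Il1r2 also rose in both fractions, but its RefSeq start site (position 40086093 of chromosome 1) lies inside the deposited gene model and its window is not printed. Capitals mark matches to the AP-1 site TGANTCA, the PU.1 core GAGGAA, the interferon-activated site TTCNNNGAA, the TATA box TATAAA or the kB consensus of NF-kB, searched on both strands.
Il1a (chr2:129309923-129310222, minus strand): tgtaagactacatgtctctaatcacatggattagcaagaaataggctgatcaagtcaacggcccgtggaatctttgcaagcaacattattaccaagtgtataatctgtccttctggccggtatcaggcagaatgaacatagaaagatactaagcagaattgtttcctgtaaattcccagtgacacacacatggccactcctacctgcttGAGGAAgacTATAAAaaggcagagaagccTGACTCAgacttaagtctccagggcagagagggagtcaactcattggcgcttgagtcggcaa
Il1b (chr2:129371090-129371389, minus strand): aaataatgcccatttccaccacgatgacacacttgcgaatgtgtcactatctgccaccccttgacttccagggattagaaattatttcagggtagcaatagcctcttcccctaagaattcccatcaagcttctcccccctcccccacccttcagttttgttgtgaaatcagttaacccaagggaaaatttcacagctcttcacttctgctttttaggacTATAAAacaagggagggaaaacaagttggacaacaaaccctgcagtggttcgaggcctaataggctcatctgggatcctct
Il1rn (chr2:24336610-24336909, plus strand): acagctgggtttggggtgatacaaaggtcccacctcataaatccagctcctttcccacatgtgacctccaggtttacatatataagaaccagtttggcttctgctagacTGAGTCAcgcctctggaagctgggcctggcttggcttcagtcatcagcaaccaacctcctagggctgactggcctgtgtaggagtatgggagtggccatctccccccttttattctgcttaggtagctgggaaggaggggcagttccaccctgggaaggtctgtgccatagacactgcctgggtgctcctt
Il33 (chr19:29924863-29925162, plus strand): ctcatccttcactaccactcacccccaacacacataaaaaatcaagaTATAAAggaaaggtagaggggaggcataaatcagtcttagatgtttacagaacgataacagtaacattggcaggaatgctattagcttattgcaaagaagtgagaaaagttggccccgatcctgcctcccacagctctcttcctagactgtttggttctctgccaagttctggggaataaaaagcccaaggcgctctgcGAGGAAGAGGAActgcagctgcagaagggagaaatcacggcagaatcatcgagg
Il1a and Il1b each had a TATA box match, beginning 32 and 31 bases before the start site, and Il33 had one 203 bases before it. Anywhere in the window and on either strand, 13.6% of the 32851 windows of all genes had such a match. An AP-1 match stood in the Il1a and Il1rn windows and in 7.81% of all windows. The PU.1 core occurred once in Il1a and in 2 adjoining copies in Il33, against 28.3% of all windows with at least 1 match. No kB consensus was matched in these 4 windows (8.46% of all windows), nor an interferon-activated site (8.30%), which says only that these letters are not there. The window of Il1r2 that is not printed held an interferon-activated site match, 111 bases before its start site. The motifs were not tested against expression, and no matches overlapped each other.

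The first comparison asked how the family responded to LPS in the mRNA pulled down with the tagged ribosomes. Of the 10 genes, Il1r2, Il1rn, Il1b, Il1a and Il18bp rose, Il33 fell, and Il1r1, Il1rap, Il18 and Il1rl1 did not pass the test. Over all genes tested, 19.0% were called raised and 14.9% lowered in this comparison. The LPS and PBS libraries did not overlap for 6 of the 10 genes, compared with 30.1% of all genes tested. The median log2 fold change of the 10 genes was 1.06, and that of all genes tested 0.01. In input, 5 of the 10 genes rose (Il1rn, Il1r2, Il1b, Il1a and Il1r1) and 2 fell (Il33 and Il18), where 7.16% of all genes were raised and 5.26% lowered. The input groups did not overlap for 8 of the 10 genes, against 24.2% of all genes, and the medians were 0.70 and 0.00. Because LPS animals were mostly female, the fits were repeated with sex as a term, which ended only the call of Il18 in input.

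**Figure D1:**
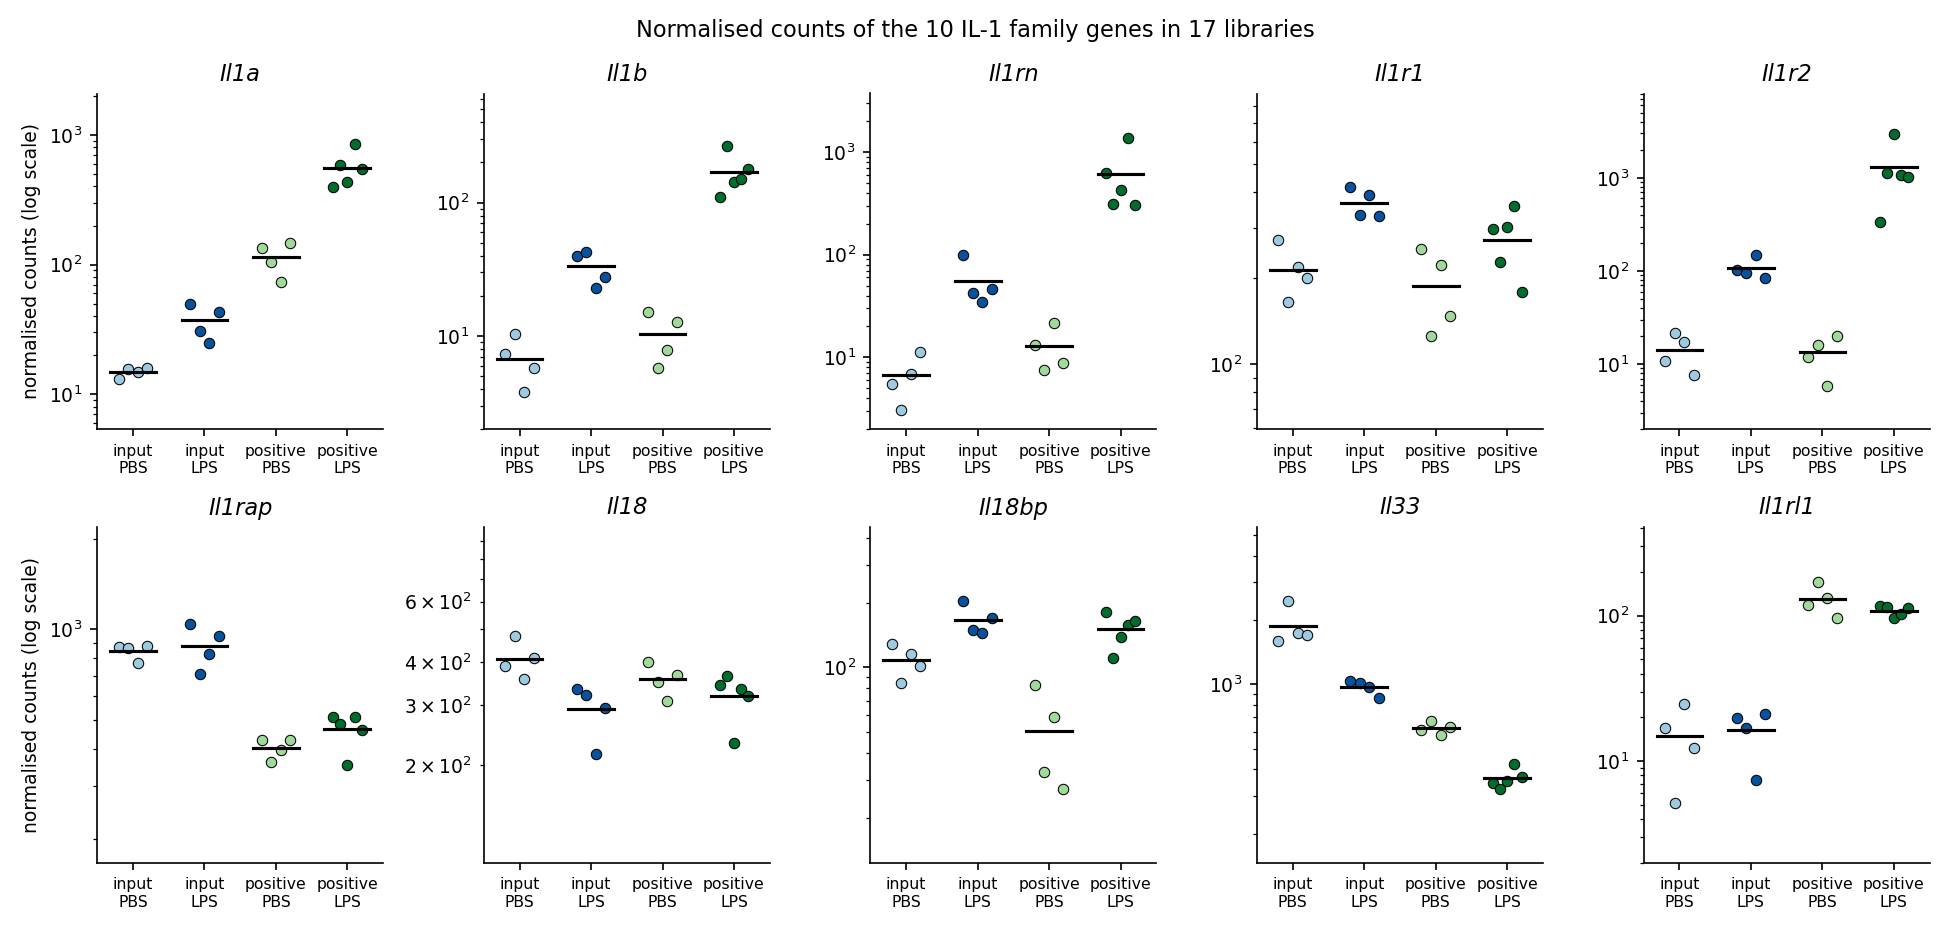
Normalised counts (log axis) of each of the 10 genes in the 17 libraries, 1 point per library, with the bar at the group mean; light and dark blue are Input PBS and Input LPS, light and dark green Positive PBS and Positive LPS. Il1r2 in Positive LPS spans 333 to 2944 against 5.88 to 19.9 in Positive PBS, and Il33 is the gene whose LPS libraries lie below the PBS libraries in both fractions without overlap while input lies above the positive fraction.

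Il1a (chromosome 2, 129299610 to 129309972, minus strand, mm10) encodes IL-1α, which is active as a precursor and also bound to the cell surface. Values are listed in the order of animals 268, 272, 273 and 506 for PBS and 266, 267, 270, 271 and 507 for LPS, with 271 missing from input. In the positive fraction Il1a lay at 133, 104, 73.8 and 147 normalised counts in PBS and at 396, 582, 430, 847 and 543 in LPS. The lowest LPS library was thus well above the highest PBS library. The log2 fold change was 2.29 ± 0.25 (SE; edgeR adjusted p = 9.82e-07), or 4.90-fold. In input the values were 13.2, 15.5, 14.7 and 15.8 in PBS and 49.8, 30.5, 24.6 and 43.3 in LPS, again with no overlap and with far fewer counts. The input change was 1.31 ± 0.32 (edgeR adjusted p = 0.00974). It was no longer called with the animal as a replicate block (limma voom with duplicateCorrelation, 1.40, adjusted p = 0.0776).

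Il1b (chromosome 2, 129364580 to 129371120, minus strand) encodes IL-1β, a precursor that inflammasome-activated caspase-1 cleaves before release. It was scarce without LPS, at 15.2, 5.71, 7.84 and 12.7 normalised counts in Positive PBS. After LPS it lay at 110, 266, 143, 151 and 178, so every LPS library was above each PBS library. The log2 fold change was 4.03 ± 0.35 (edgeR adjusted p = 8.53e-08), or 16.3-fold. In input Il1b rose from 7.29, 10.3, 3.80 and 5.72 to 39.8, 42.3, 23 and 27.8, a log2 fold change of 2.28 ± 0.38 (edgeR adjusted p = 4.16e-04). Il1a, Il1b, Il1r2 and Il1rap each overlap a predicted gene on the opposite strand (Gm14023, Gm14047, Gm16894 and Gm20319), and the authors aligned the reads by strand.

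Il1rn (chromosome 2, 24336860 to 24351491, plus strand) encodes the receptor antagonist, as secreted and intracellular forms that the table counts together. Positive PBS held 13.1, 7.61, 21.8 and 8.92 normalised counts, and Positive LPS 617, 308, 424, 1364 and 307. The LPS libraries were all far above the PBS libraries, and animal 271 stood highest among them. The log2 fold change was 5.56 ± 0.55 (edgeR adjusted p = 3.71e-07), or 47.2-fold, and it lay between 5.02 and 5.92 when each library was left out. In input Il1rn rose from 5.47, 3.10, 6.88 and 11.4 to 98.7, 42.7, 34.7 and 46.8, with no overlap (3.03 ± 0.61, edgeR adjusted p = 0.00222). The PBS values rest on few reads in both fractions, which limits how precisely these folds are known.

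Among the receptors, the decoy Il1r2 (chromosome 1, 40084768 to 40125226, plus strand) had the largest change of the 10 genes in the positive fraction. It lay at 12.0, 16.2, 5.88 and 19.9 normalised counts in Positive PBS and at 333, 1138, 2944, 1082 and 1029 in Positive LPS. Animal 270 was the highest and animal 266 the lowest of the LPS animals, and even the latter was above every PBS library. The log2 fold change was 6.58 ± 0.58 (edgeR adjusted p = 9.34e-08), or 95.4-fold, and between 6.04 and 6.83 without any single library. In input Il1r2 rose from 10.9, 21.7, 17.1 and 7.62 to 102, 96.2, 149 and 84.7 (2.92 ± 0.57, edgeR adjusted p = 0.00161). That input call was lost with the animal as a replicate block (limma voom, 2.97, adjusted p = 0.11).

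Il1r2 is also abundant in neutrophils, so their markers were read in the same libraries. A list of 12 neutrophil genes summed to between 1861 and 2189 normalised counts in Positive PBS and to between 1096 and 2223 in Positive LPS, but most of it in Positive PBS was Csf3r, the G-CSF receptor, which fell (1666 to 2043 in Positive PBS, 656 to 1282 in Positive LPS). Without Csf3r the other 11 genes summed to between 145 and 327 in Positive PBS and to between 434 and 1158 in Positive LPS, with no overlap (a list shortened after its values were seen). Of the 7 neutrophil genes tested, 5 rose in the positive fraction with LPS, where 19.0% of all genes were raised. Besides Csf3r, which fell, Cxcr2 was not called (0.02 ± 0.18). S100a8, a calcium-binding alarmin, had the largest change among the 7, from between 5.71 and 24.2 to between 167 and 599. Ly6g, the defining surface marker, was at 0 in all 17 libraries. Elane was at 0 in every library of both positive groups and of Input LPS, and at 0 to 10 in Input PBS. Animal 270, with the highest Il1r2, had the lowest neutrophil sum of the Positive LPS libraries, with Csf3r (1096) and without it (434). In input the sum without Csf3r was 472 to 869 in PBS and 770 to 1677 in LPS. The part of these genes in the Il1r2 change was not tested.

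The signalling chain Il1r1 (chromosome 1, 40225080 to 40316177, plus strand) moved little by comparison. In Positive PBS it lay at 253, 126, 223 and 148 normalised counts and in Positive LPS at 297, 229, 302, 359 and 179, and the groups overlapped. The log2 fold change of 0.55 ± 0.22 (unadjusted 95% interval 0.07 to 1.02) had an adjusted p of 0.0546 by edgeR and was not called. It was called with the animal as a replicate block (limma voom, 0.57, adjusted p = 0.0402), with DESeq2 (0.55, adjusted p = 0.0344) and without Positive PBS animal 268 (0.73, edgeR adjusted p = 0.0196). In input Il1r1 rose from 272, 165, 219 and 200 to 417, 332, 391 and 330, with no overlap (0.78 ± 0.23, edgeR adjusted p = 0.0267). This input call was lost when any of the libraries Input PBS 272, 273 or 506 or Input LPS 266 or 270 was left out, with adjusted p-values up to 0.0891.

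The accessory chain Il1rap (chromosome 16, 26581705 to 26725147, plus strand), shared by the IL-1 and IL-33 receptors, did not pass the test in either fraction. It ranged from 362 to 428 normalised counts in Positive PBS and from 352 to 512 in Positive LPS (0.20 ± 0.12, interval -0.06 to 0.47). Input PBS spanned 773 to 879 and Input LPS 707 to 1038 (0.05 ± 0.13, interval -0.22 to 0.33). Both intervals include 0, and both groups overlapped in each fraction.

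In the IL-18 arm, the ligand Il18 (chromosome 9, 50565368 to 50581837, plus strand) was present at similar counts in all 4 groups. Positive PBS held 399, 349, 308 and 367 normalised counts and Positive LPS 342, 364, 232, 334 and 318, which overlapped (-0.16 ± 0.15, interval -0.48 to 0.15, not called). In input the values of 389, 476, 357 and 410 in PBS were all above the 334, 320, 216 and 293 in LPS. The input change of -0.49 ± 0.15 passed the test (edgeR adjusted p = 0.0413) but lost the call in 12 of 27 alternatives, where the fall stayed between -0.37 and -0.51 and the adjusted p reached 0.179. Of these, 8 left out a single library, the highest p among them being 0.136 without Input LPS 270.

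Its antagonist Il18bp (chromosome 7, 102015077 to 102018155, minus strand) went the other way. It lay at 83.0, 32.8, 58.8 and 27.4 normalised counts in Positive PBS and at 180, 111, 139, 157 and 164 in Positive LPS, with no overlap. The log2 fold change was 1.57 ± 0.26 (edgeR adjusted p = 1.32e-04), or 2.96-fold. In input the values of 129, 84.9, 116 and 102 in PBS lay below the 203, 149, 145 and 169 in LPS, yet the change of 0.62 ± 0.26 was not called (edgeR adjusted p = 0.118). With the animal as a replicate block it was (limma voom, 0.63, adjusted p = 0.044), as it was when the input groups alone were fitted (0.61, edgeR adjusted p = 0.0321).

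Il33 (chromosome 19, 29925114 to 29960715, plus strand), the nuclear alarmin, was the gene called lower among the 10 in the positive fraction. It fell from 612, 676, 579 and 628 normalised counts in Positive PBS to 344, 323, 351, 424 and 369 in Positive LPS (-0.78 ± 0.12, edgeR adjusted p = 4.77e-05). In input it fell from 1585, 2459, 1729 and 1697 to 1036, 1010, 971 and 864 (-0.94 ± 0.12, edgeR adjusted p = 3.52e-05). The groups did not overlap in either fraction, and the call held in each of the 27 alternatives for both. Oligodendrocyte markers also fell in input, and less clearly in the positive fraction. A list of 10 such genes summed to between 111512 and 174273 normalised counts in Input PBS and to between 71298 and 100252 in Input LPS. In input 8 of the 10 were called lower, as were 5.26% of all genes tested. In the positive fraction the sums were 25687 to 33249 in PBS and 22256 to 31926 in LPS, which overlapped. There 4 of the 10 were called lower, as were 14.9% of all genes tested. Input PBS animal 272, with the highest Il33, also had the highest oligodendrocyte sum, at 174273. In Input LPS the order differed, as animal 266 had the highest Il33 (1036) and the lowest sum (71298). The sum of a list of 10 astrocyte genes went up in input, from 111050 to 119389 in PBS to 125899 to 136567 in LPS. Much of that rise was Gfap, at 6565 to 7960 in Input PBS and 23446 to 35327 in Input LPS. Of the 10 astrocyte genes, 4 were called higher and 1 lower in input, with a median log2 fold change of 0.07. Over all genes tested, 7.16% were raised and 5.26% lowered there. The part of these markers in the fall of Il33 was not tested.

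The IL-33 receptor gene Il1rl1 (chromosome 1, 40439649 to 40465414, plus strand), which encodes membrane-bound and soluble ST2, did not pass the test for LPS. It lay at 119, 171, 132 and 96.4 normalised counts in Positive PBS and at 116, 114, 96.0, 103 and 113 in Positive LPS, which overlapped (-0.26 ± 0.27, interval -0.86 to 0.33). In input it was scarce (5.16 to 24.9 in PBS, 7.39 to 21.2 in LPS, 0.12 ± 0.37, interval -0.67 to 0.91). ST2 is also a mast cell receptor, so mast cell genes were read beside it. The proteases Mcpt4, Cma1 and Tpsb2 summed with 6 other mast cell and lymphoid genes to 218 to 275 normalised counts in Positive PBS, 109 to 241 in Positive LPS and 58.6 to 150 in input. Much of these sums was Gata3, a transcription factor of lymphocytes among other cells (114 to 202 in Positive PBS, 73.4 to 223 in Positive LPS). Without it the other 8 genes summed to 73.1 to 126 in Positive PBS, 3.31 to 61.9 in Positive LPS and 1.81 to 13.8 in input. That sum, of a list shortened after its values were seen, was lower in each Positive LPS library than in any Positive PBS library. With Gata3 the 2 groups overlapped. Singly, Cpa3 (7.84 to 25.5 and 0 to 12.4) and Tpsb2 (26.1 to 56.6 and 2.21 to 29.3) overlapped too, whereas Cma1 did not (15.3 to 26.1 and 0 to 10.4). Mcpt4 alone lay at 11.8 to 20 in Positive PBS, at 0 to 14.7 in Positive LPS and at 0 in each Input PBS library. The part of these genes in the Il1rl1 values was not tested.

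**Figure D2:**
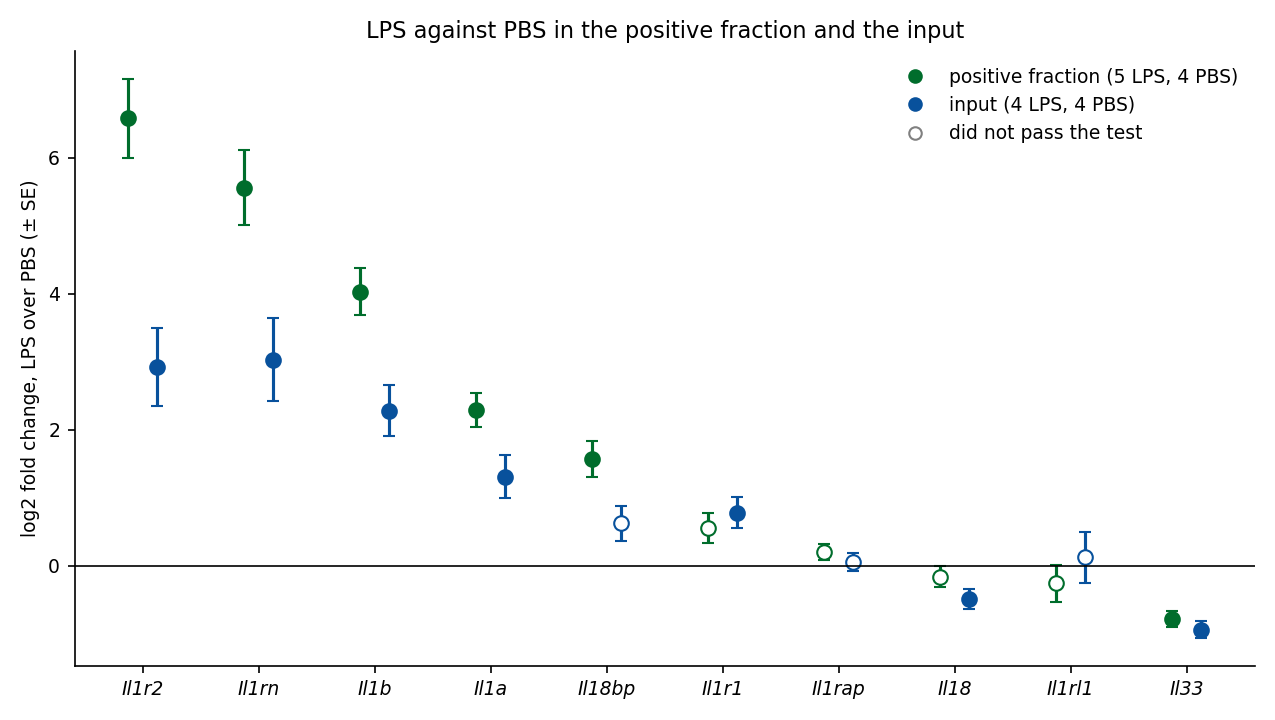
Log2 fold change of LPS over PBS with its SE for the 10 genes, green for the positive fraction and blue for input, ordered by the former; open circles did not pass the test. Il1r2 reaches 6.58 and Il1rn 5.56 in the positive fraction, against 2.92 and 3.03 in input, and Il33 lies below 0 in both.

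Whether LPS acted more strongly in the positive fraction than in input was tested as the difference of the log2 fold changes. Only Il1r2 was called, with a difference of 3.66 ± 0.86 (edgeR adjusted p = 0.0132), where 6.88% of all genes tested were called in either direction. The difference for Il1r2 missed the threshold without Input PBS animal 272 (3.40, edgeR adjusted p = 0.0524). For Il1b it was 1.75 ± 0.54 (edgeR adjusted p = 0.0607), for Il1rn 2.54 ± 0.90 (0.108), for Il1a 0.99 ± 0.41 (0.176) and for Il18bp 0.95 ± 0.36 (0.141), and none of these passed. With the animal as a replicate block, which uses the 8 animals with both libraries, 4 genes were called, Il1b (1.77, edgeR adjusted p = 0.0411), Il1rn (1.99, 0.0124) and Il18bp (0.99, 0.0231) besides Il1r2. The other 5 genes had differences between -0.39 and 0.32, with intervals that included 0 under the unblocked fit.

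How far the brakes kept pace with the agonists was asked with 3 ratios per library, each tested by a two-sided exact permutation test of the log2 ratio and adjusted over the 6 tests. In the positive fraction the ratio of Il1rn to the sum of Il1a and Il1b, on the scale of counts per kb of exon, was 0.0615, 0.0495, 0.186 and 0.0393 in PBS and 0.809, 0.231, 0.484, 0.932 and 0.279 in LPS. On this approximate scale the antagonist transcript was below its ligands in every library, and closer to them after LPS. On counts not divided by length, the log2 ratio reached 0.45 in Positive LPS and 0.14 in Input LPS, above equal counts. The log2 ratio rose by 2.81, or 7.02-fold (exact permutation p = 0.00794, adjusted 0.0159). The ratio of Il1r2 to Il1r1 went from 0.204, 0.553, 0.113 and 0.582 to 4.84, 21.4, 42, 13 and 24.8, so that the decoy passed from below the signalling receptor to above it in every LPS library. That was a log2 increase of 5.78, or 54.8-fold (exact permutation p = 0.00794, adjusted 0.0159). Against input, Il1r1 was not called higher in the positive fraction under either treatment (log2 difference -0.20 in PBS, -0.43 in LPS). After LPS Il1r2 was called higher there (3.59). Whether the 2 transcripts came from the same cells was not tested. The ratio of Il18bp to Il18 rose from 0.0709, 0.0320, 0.0651 and 0.0255 to 0.179, 0.104, 0.204, 0.160 and 0.176 (log2 increase 1.85, exact permutation p = 0.00794, adjusted 0.0159). These ratios use the same counts as the single-gene tests, where Il1r2, Il1rn and Il18bp had already been called higher. The ratio tests are therefore not separate evidence. In Positive PBS, Il1r2 rested on 4.5 to 17 estimated counts and Il1rn on 7 to 16.7.

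The same 3 ratios rose in input, by less. Il1rn to its ligands had a median of 0.208 in Input PBS and 0.422 in Input LPS (log2 increase 1.32), Il1r2 to Il1r1 of 0.255 and 1.18 (2.15), and Il18bp to Il18 of 0.0975 and 0.202 (1.13). Each had an exact permutation p of 0.0286 (adjusted 0.0286), the smallest that 4 against 4 libraries can give, and 0.00794 is the smallest for 5 against 4. For the first ratio the highest PBS library (0.346) lay above the lowest LPS library (0.338) per kb, so those groups touched. Whether the increases differed between fractions was not tested.

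**Figure D3:**
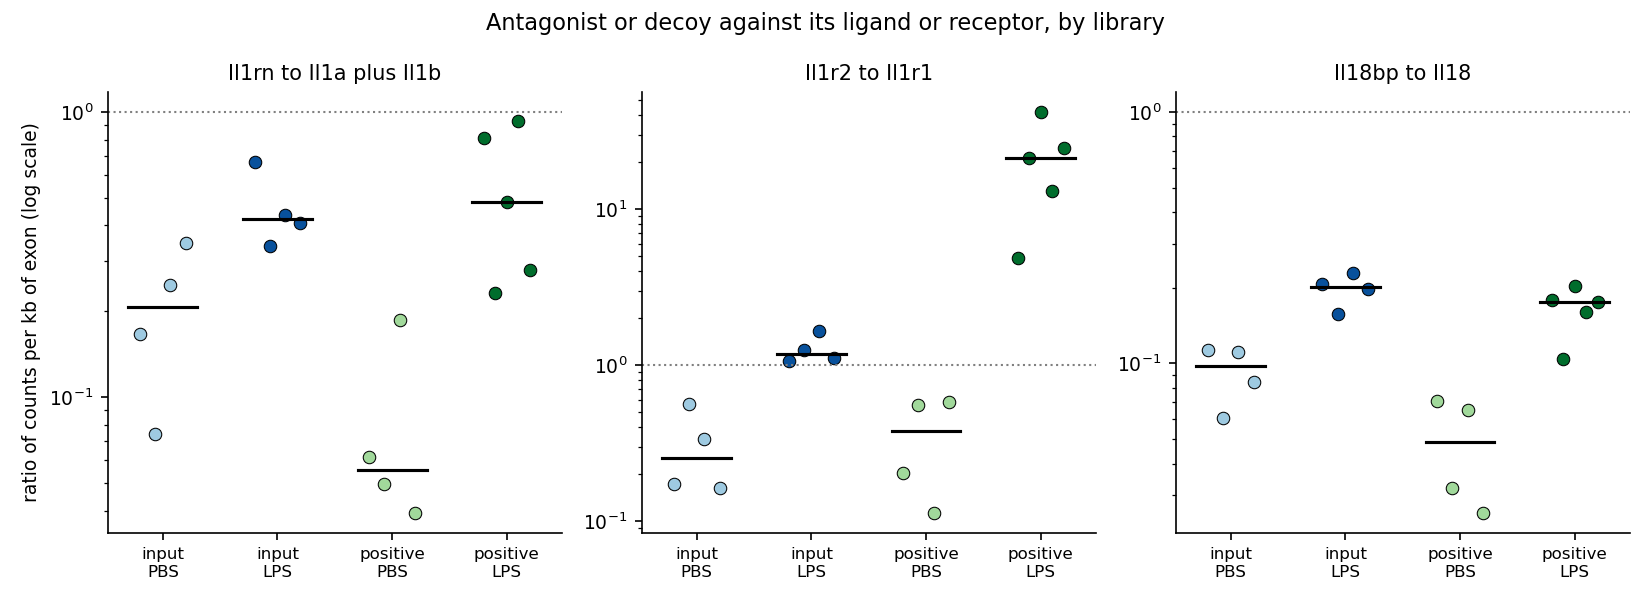
Ratio of counts per kb of exon (log axis) in each library for Il1rn to Il1a plus Il1b, Il1r2 to Il1r1 and Il18bp to Il18; the bar is the group median and the dotted line marks equal levels. In Positive LPS, Il1r2 to Il1r1 lies between 4.84 and 42, above the line, whereas the other 2 ratios stay below it in all 17 libraries.

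Positive fraction and input were then compared within treatments, which asks how far a transcript was concentrated on the tagged ribosomes. In PBS animals Il1rl1 and Il1a were called higher in the positive fraction, and Il33, Il18bp and Il1rap lower, where 21.0% of all genes were called higher and 18.8% lower. Il1rl1 was higher by 3.10 ± 0.34 on the log2 scale (edgeR adjusted p = 6.20e-07) and Il1a by 2.93 ± 0.31 (3.55e-07), each in 4 of 4 animals. For scale, the 10 microglial markers had a median of 4.29. Il33 differed by -1.58 ± 0.13 (edgeR adjusted p = 8.12e-09), Il18bp by -1.10 ± 0.27 (0.00322) and Il1rap by -1.07 ± 0.13 (2.48e-06), each lower in 4 of 4 animals, and the 10 oligodendrocyte markers had a median of -2.39. Other cell types' markers also differed, with 9 of 10 endothelial genes (median 1.32) and 4 of 6 tested monocyte genes (median 1.54) called higher in the positive fraction, while astrocyte and neuronal lists had medians of -0.35 and 0.04. The part of these cells in the differences of the 10 genes was not tested. Il1b (0.60 ± 0.44), Il1rn (0.90 ± 0.75) and Il1r2 (-0.06 ± 0.74), all scarce in PBS animals, did not pass, and their intervals were wide (-0.36 to 1.56, -0.71 to 2.52 and -1.66 to 1.53). Neither did Il18 (-0.20 ± 0.15) or Il1r1 (-0.20 ± 0.23).

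In LPS animals 5 genes were called higher in the positive fraction, where 27.6% of all genes were higher and 25.8% lower. These were Il1a (3.91 ± 0.27, edgeR adjusted p = 7.88e-10), Il1r2 (3.59 ± 0.45), Il1rn (3.44 ± 0.45), Il1rl1 (2.72 ± 0.32) and Il1b (2.35 ± 0.30). All 4 LPS animals with both libraries had higher values in the positive fraction for each of them. Per animal, the log2 difference for Il1r2 ranged from 1.70 to 4.30 in LPS and from -1.46 to 1.33 in PBS. Il33 (-1.42 ± 0.12) and Il1rap (-0.92 ± 0.12) were called lower, as in PBS animals. Il18bp, lower in PBS animals, had a difference of -0.15 ± 0.24 after LPS (interval -0.67 to 0.37) and was not called. Il1r1 was not called either (-0.43 ± 0.21, edgeR adjusted p = 0.0884), but was with the animal as a replicate block (-0.56, edgeR adjusted p = 7.85e-04).

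**Figure D4:**
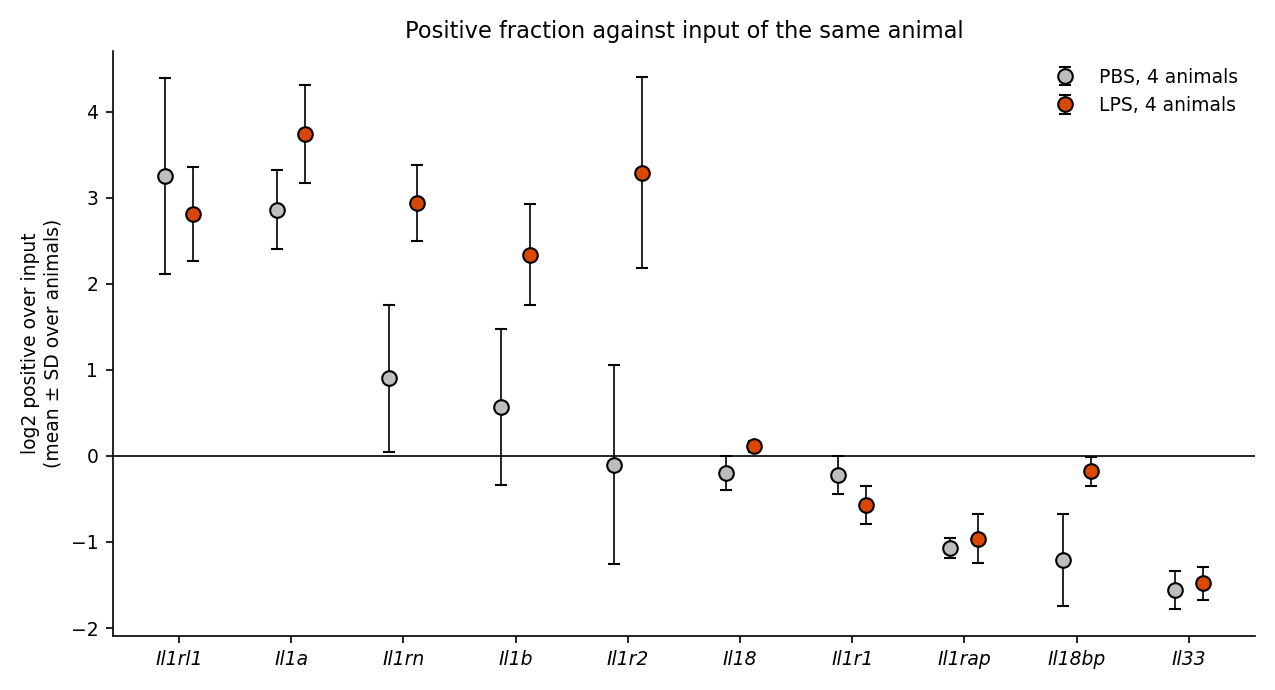
Log2 ratio of the positive library to the input library of the same animal (mean ± SD, 4 PBS and 4 LPS animals) for the 10 genes, computed from normalised counts plus 0.5. Il1rl1 lies near 3 under both treatments, Il1a at 2.86 in PBS and 3.74 in LPS, Il1r2 goes from -0.10 to 3.29, and Il33 lies near -1.5 in both.

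Levels of different genes were compared per kb of exon (GENCODE vM21 union lengths, while the table was counted on RefSeq models, so the order is approximate). In Input PBS the order was led by Il33 (717 ± 153 normalised counts per kb, SD, n = 4), Il18 (396 ± 48.6) and Il1rap (98.5 ± 5.88), whose ranges did not overlap. Il18bp and Il1r1 (35.7 and 35) overlapped each other, and Il1r2, Il1a, Il1b, Il1rn and Il1rl1 followed at 10.1 to 2.17 with overlapping neighbours. In Positive PBS Il18 stood first (345 ± 37.0), above Il33 (239 ± 15.5) and then Il1a (57.9 ± 16.4), which overlapped Il1rap. In Positive LPS Il1r2 had the highest mean (920 ± 685, n = 5), but its range overlapped that of Il18 (308 ± 49.5), and Il1a (283 ± 90.3), Il1rn (223 ± 164), Il33 (139 ± 14.7) and Il1b (125 ± 43.6) followed with each neighbour overlapping the next. Il1rn thus went from the last place in Positive PBS (4.75) to the fourth in Positive LPS. In Input LPS Il33 (372 ± 29.1) and Il18 (282 ± 50.8) still led.

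The rest of the pathway was read from a list of 53 genes, all rows of the table, of which 47 were tested. In the positive fraction 21 of the 47 rose with LPS and 0 fell, with a median log2 fold change of 0.33, where 19.0% of all genes were raised and 14.9% lowered. In input 19 rose and 0 fell, with a median of 0.27, where 7.16% of all genes were raised and 5.26% lowered. All genes tested had medians of 0.01 and 0.00. At an unadjusted p under 0.05, edgeR had 2 genes lower in the positive fraction (Mapk8 and Il1rapl2) and 1 in input (Irak2), and DESeq2 likewise called 0 lower in each, with 22 and 20 higher. With the animal as a replicate block (limma voom) the counts were 22 higher and 1 lower (Sigirr) in the positive fraction and 16 higher in input. The shares of all genes belong to the unblocked edgeR fit and not to DESeq2 or limma. Of the 8 negative regulators, 5 rose in each fraction, against the 19.0% and 7.16% of all genes raised. Zc3h12a, an RNase that degrades cytokine mRNAs, went from 64.2 to 111 normalised counts in Positive PBS to 970 to 2154 in Positive LPS (3.96 ± 0.30, edgeR adjusted p = 1.57e-08). Irak3, a kinase-like inhibitor of IL-1 and TLR signalling, went from 88.5 to 127 to 595 to 2029 (3.81 ± 0.29). Tnfaip3, the ubiquitin-editing enzyme A20, went from 272 to 404 to 2509 to 5141 (3.22 ± 0.22). In input these rose by 1.79 ± 0.31, 1.97 ± 0.30 and 1.49 ± 0.23, and for each of the 3 the difference between fractions was itself called (edgeR adjusted p between 0.00209 and 0.00763). Zfp36, which encodes the mRNA-destabilising protein tristetraprolin, rose by 1.81 ± 0.20 in input and 1.10 ± 0.19 in the positive fraction, and the difference of -0.71 ± 0.27 was not called (edgeR adjusted p = 0.14).

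Of the 10 tested genes for processing and release of IL-1, 6 rose in the positive fraction (19.0% of all genes) and 8 in input (7.16% of all genes). The inflammasome sensor Nlrp3 lay at 256 to 563 normalised counts in Positive PBS and 1367 to 1948 in Positive LPS (1.95 ± 0.20, edgeR adjusted p = 4.78e-07), and rose by 1.78 ± 0.24 in input. Casp4, the murine caspase-11 that senses intracellular LPS, rose by 1.92 ± 0.29 in the positive fraction and 1.97 ± 0.37 in input. Casp1, which cleaves the precursors of IL-1β and IL-18, rose by 0.89 ± 0.16 (306 to 391 against 480 to 766 normalised counts) and by 0.60 ± 0.19 in input. Of the 23 signalling genes, 8 rose in the positive fraction and 5 in input, with the same shares of all genes behind them, and whether the counts differ between fractions was not tested. The adaptor Myd88 rose by 1.47 ± 0.13 and 0.86 ± 0.13. Nfkbiz, a nuclear cofactor of NF-kB target genes, rose by 3.90 ± 0.31 in the positive fraction (96.6 to 179 against 1314 to 4027) and by 1.00 ± 0.28 in input.

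Other family members were mostly at low counts, and 6 of 11 were tested. Of these, 2 rose in the positive fraction and 1 in input, where 19.0% and 7.16% of all genes were raised. Their median log2 fold changes were -0.26 and -0.11, against 0.01 and 0.00 for all genes tested, so as a group they did not rise. Il18rap, the accessory chain of the IL-18 receptor, went from 5.10 to 10.4 normalised counts in Positive PBS to 69.5 to 170 in Positive LPS (3.85 ± 0.54, edgeR adjusted p = 2.18e-05). This gene passed the filter only through Positive LPS, the group where it was high. In input it lay at 0 to 5.47 in PBS and 3.05 to 31.4 in LPS, where the groups overlapped although the fit called it higher. Its partner Il18r1, the ligand-binding chain, stayed under the filter, at 6.44 to 34.2 in Positive PBS and 9.39 to 37.5 in Positive LPS. Sigirr, a single-domain inhibitory receptor of the family, did not pass in the positive fraction (-0.81 ± 0.49, 34.9 to 67.3 against 8.49 to 57.8) or in input (0.12 ± 0.55).

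**Figure D5:**
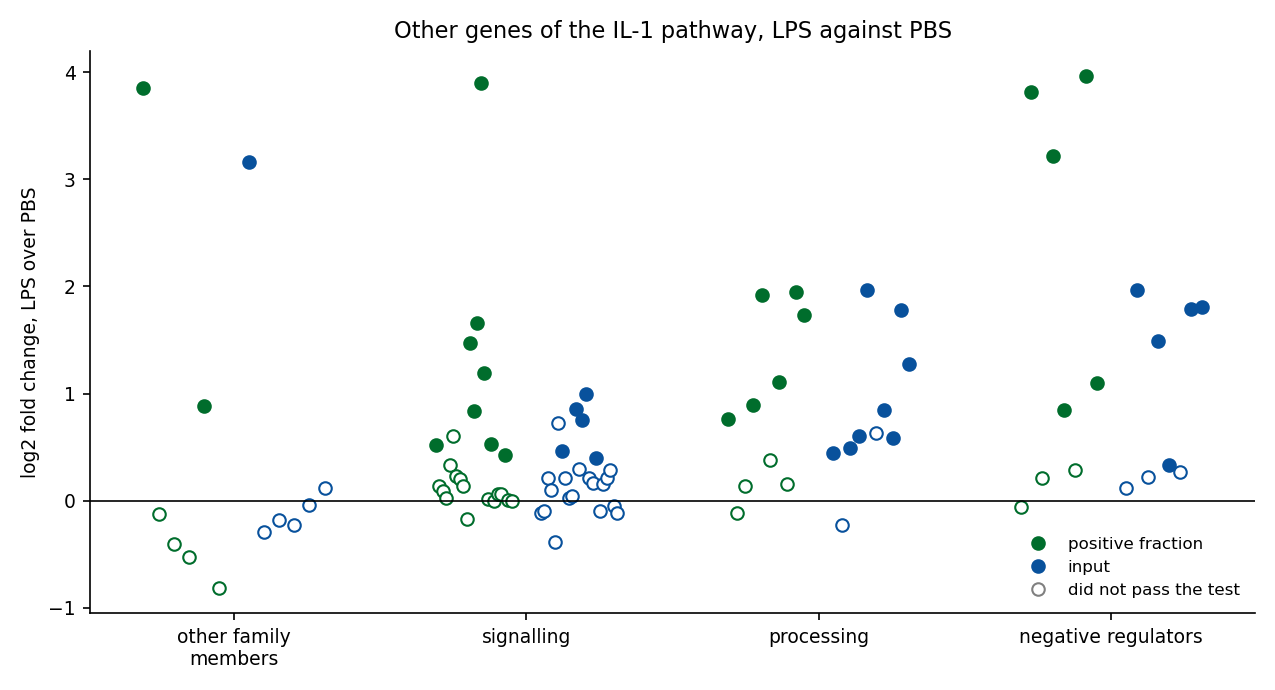
Log2 fold change of LPS over PBS for the 47 tested genes of the wider pathway by role, 1 point per gene, green for the positive fraction and blue for input; open circles did not pass the test. Every filled point lies above 0, and the highest in the positive fraction is Zc3h12a at 3.96.

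Genes with the most similar pattern to each member were found by the root mean square difference of centred log2 profiles over the 17 libraries, among genes averaging 100 or more normalised counts. They describe likeness across 4 groups that differ in fraction and treatment, and so mostly reflect those differences. Il1a was nearest to Pik3r5 (0.30), C3ar1 (0.33) and Tgfbi (0.35), where its own profile spread was 2.00. Il1b was nearest to Socs3 (0.47), Irak3 (0.57) and Zc3h12a (0.58), and Il1rn to Cd300lf (0.64), Clec4d (0.73) and Cd244 (0.74). Il1r2 was nearest to Trem1 (0.66), Cd300lf (0.88) and Fgr (0.91), of a spread of 2.75. Il33 was nearest to Olig1 (0.22), a transcription factor of the oligodendrocyte lineage, then to Efhd1 (0.23) and S1pr5 (0.26). Il1rl1 was nearest to Akna and Il10rb (0.47 each). Il18bp was nearest to Snhg3 (0.33), Ssh3 (0.38) and 1810032O08Rik (0.39). For Il1rap, Il18 and Il1r1, with spreads of 0.52, 0.27 and 0.48, the nearest genes were C030046E11Rik, Ralgds and BC030336 (0.16 to 0.17), 1110057K04Rik, Amd1 and Acn9 (0.15 to 0.16), and Atp6ap1l, Klhl33 and Pcnt (0.22 to 0.26).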

How the data were processed

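RNAseq was analysed for input and positive TRAP fractions from 9 Cx3cr1-NuTRAP mice. Per the study's methods and the file header, the authors trimmed reads, aligned them by strand to mm10 in Strand NGS to deposit an estimated count per RefSeq gene model and library. Of the nonzero deposited estimated counts, 81.7% were not whole (tolerance 1e-06), and they were rounded for the count model. The authors also deposited log2 values normalised with DESeq, which were not used for tests.

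Size factors (medians of ratios over 15766 genes) lay between 0.766 and 1.32. A gene was kept where 1 group had over 20 normalised counts in all its libraries, after the study's own filter. The quasi-likelihood functions of edgeR 4.0.16 (in R 4.3.3) were fitted to the 17 libraries, with the group as the only term (13 residual degrees of freedom), in place of the study's analysis of variance, because the values are counts. The SE is the fold change divided by the square root of F, and unadjusted 95% intervals use t on 13 degrees of freedom. Ratios of genes used estimated counts plus 0.5 for the test and no pseudocount per kb. Depth sets precision, and without molecular identifiers the reads are not independent molecules.

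Positive and input libraries of an animal are paired, since both come from the same animal, and their deviations from group means correlated by 0.16 to 0.519 in 8 animals. The block was the animal in edgeR (contrasts between fractions) or in limma 3.58.1 voom with duplicateCorrelation (consensus 0.445). Alternatives were DESeq2 1.42, limma trend, TMM factors, other filters, all 18 libraries, sex as a term and leaving out libraries. Scripts were tested on simulated data. The 10 genes, the pathway and marker lists, the motifs and the rule for named genes (all 10 members, per LPS effect the 6 pathway genes with the largest called change that averaged 100 or more normalised counts, and Il18r1, Il18rap, Sigirr, Casp1, Nlrp3 and Myd88) were chosen with earlier results of these data known.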

Additional observations from a re-analysis of the deposited data

Results flagged for a closer look

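Of 40 groups tested for a sample far from the others (10 genes in 4 groups), 2 held one, and chance flags about 1 in 20 groups. Il1rap in Input PBS had a lowest value of 773 normalised counts in animal 273, with the other 3 libraries between 863 and 879. Il33 in Input PBS had a highest value of 2459 in animal 272, whose oligodendrocyte marker sum was also the highest, and the other 3 libraries lay between 1585 and 1729. The LPS effect on Il1r2 differed between fractions by 3.66 on the log2 scale (edgeR adjusted p = 0.0132), higher in the positive fraction.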

How the results depend on the processing

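The 50 combinations of gene and contrast gave 1336 values under alternatives, of which 1283 kept their direction and their side of the threshold, 23 lost the call, 23 gained it and 7 reversed. In 36 of the 50 combinations no alternative changed anything. The number of members called in input was 7, and 4 when animals 506 and 507 were left out, a fit with fewer samples, where 11 rather than 19 of the 47 pathway genes rose in input. The number called for the difference between fractions was 1, and 3 with DESeq2, 3 with limma and its trend, 4 with the animal as replicate block, 0 without animals 506 and 507 and 0 to 3 when each library was left out (0 without Input PBS 272, 3 without Positive PBS 268, 2 without Positive LPS 266). Shares of all genes called are given for the unblocked edgeR fit only, so these counts have no matching background. Beyond the calls given above, the block changed none of the 10 genes. The cause of these changes was not tested. Values that were not called reversed for Il1rap in input (-0.03 to 0.14 with each library left out), Il1rl1 in input (-0.15 to 0.47, and -0.12 without animals 506 and 507) and Il1r2 in PBS animals between fractions (-0.29 to 0.19). Without animals 506 and 507 the log2 ratios in the positive fraction rose with LPS by 2.74 (Il1rn), 5.96 (Il1r2) and 1.56 (Il18bp). Each increase had an adjusted exact permutation p of 0.0571, where fewer libraries limit the smallest p. In input the increases of the log2 ratios ranged from 0.94 to 1.60 for Il1rn and 1.92 to 2.50 for Il1r2 with each library left out. Both missed the threshold when any of the Input LPS libraries was left out (adjusted exact permutation p = 0.0571). Among female animals alone the log2 ratio of Il1r2 to Il1r1 in input rose with LPS by 2.81 (adjusted exact permutation p = 0.1). Fewer libraries limit the smallest p here too. The count depth limits Il1b, Il1rn and Il1r2 in PBS libraries and Il1rl1 in input most, where a few reads set the values.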
